A study of Mus musculus with 6 samples.

Results

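The MAGE genes were examined in spermatogonia sorted by ID4-GFP. Members were the protein-coding rows of the expression table whose symbol begins with Magea, Mageb, Maged, Magee, Mageh or Mageg, with Magel2 left out. The rule gave 20 genes of 21968 protein-coding rows and 31918 rows in all, and no symbol began with Mageg. They comprised 8 MAGE-A, 7 MAGE-B, 2 Maged, 2 Magee and 1 Mageh gene. Of the 20 members, 19 lie on chromosome X and Mageb3 lies on chromosome 2. Transcripts were listed above 0 in at least 1 library for 19 members and in all 6 libraries for 18. At least 1 FPKM (fragments per kilobase of transcript scaled to library size) was reached in all 6 libraries by 13 members.

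The 6 libraries came from testes of pups at postnatal day 8, and all carried the Id4-eGfp (LT11) transgene, a reporter that marks cells in which Id4 is active. There were 3 libraries of Bright cells, labelled as high for Id4, and 3 of Dim cells, labelled as low. No group without the transgene was analysed here. Whether replicates stem from different pups or pools is not stated in the labels, so p-values measure only the spread between these libraries. Libraries were primed with oligo d(T). In bulk RNA of this kind, fewer cells of a type and less RNA per cell cannot be told apart.

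MAGE proteins share a MAGE homology domain and bind RING-type ubiquitin ligases, whose activity, location or substrates they alter. Type I genes (MAGE-A and MAGE-B here) are the classical cancer-testis genes: in normal adult tissue they are expressed mainly in the germ line, and many are re-expressed in tumours. Type II genes (MAGE-D, MAGE-E and MAGE-H) are expressed in many tissues. In mouse, loss of MAGE-A cluster genes has been linked to a testis that tolerates stress poorly.

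Promoter windows show how differently the members begin. Each window is 300 bases long, 250 before and 50 after a transcript start, from RefSeq on GRCm38.p6, and 18 members had 21 windows. The windows of Magea8 at chrX:154995801-154996100 and Magea2 at chrX:155033243-155033542, both on the minus strand, are printed because they are near-copies. Capitals mark the longest run of bases that the pair shares, 70 bases, which begins 87 bases before the Magea8 start and 102 bases before that of Magea2.
Magea8: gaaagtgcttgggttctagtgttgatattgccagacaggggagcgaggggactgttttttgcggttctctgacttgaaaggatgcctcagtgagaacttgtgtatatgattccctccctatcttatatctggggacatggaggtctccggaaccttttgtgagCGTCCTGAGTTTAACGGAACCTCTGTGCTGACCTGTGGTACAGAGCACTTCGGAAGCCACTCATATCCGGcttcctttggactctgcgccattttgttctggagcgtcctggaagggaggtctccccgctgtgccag
Magea2: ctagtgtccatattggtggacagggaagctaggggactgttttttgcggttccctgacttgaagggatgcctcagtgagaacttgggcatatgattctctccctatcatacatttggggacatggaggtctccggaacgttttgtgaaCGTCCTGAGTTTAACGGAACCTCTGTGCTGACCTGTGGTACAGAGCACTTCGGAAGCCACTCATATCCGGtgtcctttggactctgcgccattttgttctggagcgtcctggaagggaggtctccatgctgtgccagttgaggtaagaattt
The pair matched at 92.6% of aligned bases, 264 identical and 21 mismatched, whereas the Magea3 and Magea1 windows matched at 86.6%. Across libraries Magea8 averaged 20.9 FPKM and Magea2 averaged 4.54 FPKM. The measured Magea2 gene spans chrX:155027201-155093666, and the printed start lies inside this span. Its level is therefore not known to come from that start. Both genes also share transcript sequence with other members, as given below (58.3% for Magea2 and 41.5% for Magea8), so their levels are uncertain.

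The windows of Maged1 at chrX:94541976-94542275 and Maged2 at chrX:150812930-150813229, both on the minus strand, are printed because a motif recurs in them. Capitals mark GCGCATGCGC, the palindrome that the transcription factor NRF1 is known to bind, which reads the same on both strands.
Maged1: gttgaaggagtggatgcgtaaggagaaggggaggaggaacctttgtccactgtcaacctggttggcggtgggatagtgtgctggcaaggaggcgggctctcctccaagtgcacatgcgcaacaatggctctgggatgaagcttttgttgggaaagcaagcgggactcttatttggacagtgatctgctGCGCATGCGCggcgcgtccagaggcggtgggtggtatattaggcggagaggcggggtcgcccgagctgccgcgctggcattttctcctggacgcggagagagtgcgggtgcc
Maged2: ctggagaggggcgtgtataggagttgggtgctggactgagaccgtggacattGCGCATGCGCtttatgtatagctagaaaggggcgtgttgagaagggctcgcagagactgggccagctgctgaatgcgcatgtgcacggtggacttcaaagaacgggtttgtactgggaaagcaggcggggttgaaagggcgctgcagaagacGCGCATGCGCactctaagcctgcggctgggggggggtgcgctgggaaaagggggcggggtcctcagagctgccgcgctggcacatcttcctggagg
The palindrome occurred once in the Maged1 window, 62 bases before the start, and 2 times in the printed Maged2 window, the first 198 bases before the start. It was found in 3 windows of 2 members and in 0.971% of all 32851 windows. The Maged2 windows at chrX:150814296-150814595 and chrX:150813658-150813957 held none, nor did those of the type II genes Mageh1, Magee1 and Magee2. The measured Maged2 gene spans chrX:150806370-150814345, and the printed start lies inside this span. The Maged2 level is therefore not known to come from that start. The letters CGGAAG, the core bound by ETS factors, were searched on both strands and occurred in windows of 4 members (Magea2, Magea8, Mageh1 and Maged2) and in 16.9% of all windows; neither motif contains the other. CpG dinucleotides ranged widely among the members, against a median of 7 over all windows. Maged1 and Mageb3 had 20 CpGs, Mageh1 18 and Mageb4 11, whereas Magea3 and Magea5 had 0 and Magea1, Magea6, Mageb18 and Mageb5 had 1 each. In between, Magee1 had 14, Magee2 12, Magea8 10, Magea2 9, Mageb16 6, Magea10 5 and Magea4 2, and the Maged2 windows had 8 to 19. The Mageb3 window lies near the start of Ctdspl2 on the opposite strand, whose span begins at chr2:121956001. These are descriptions of letters in the windows, with no binding or methylation measured.

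**Figure D1:**
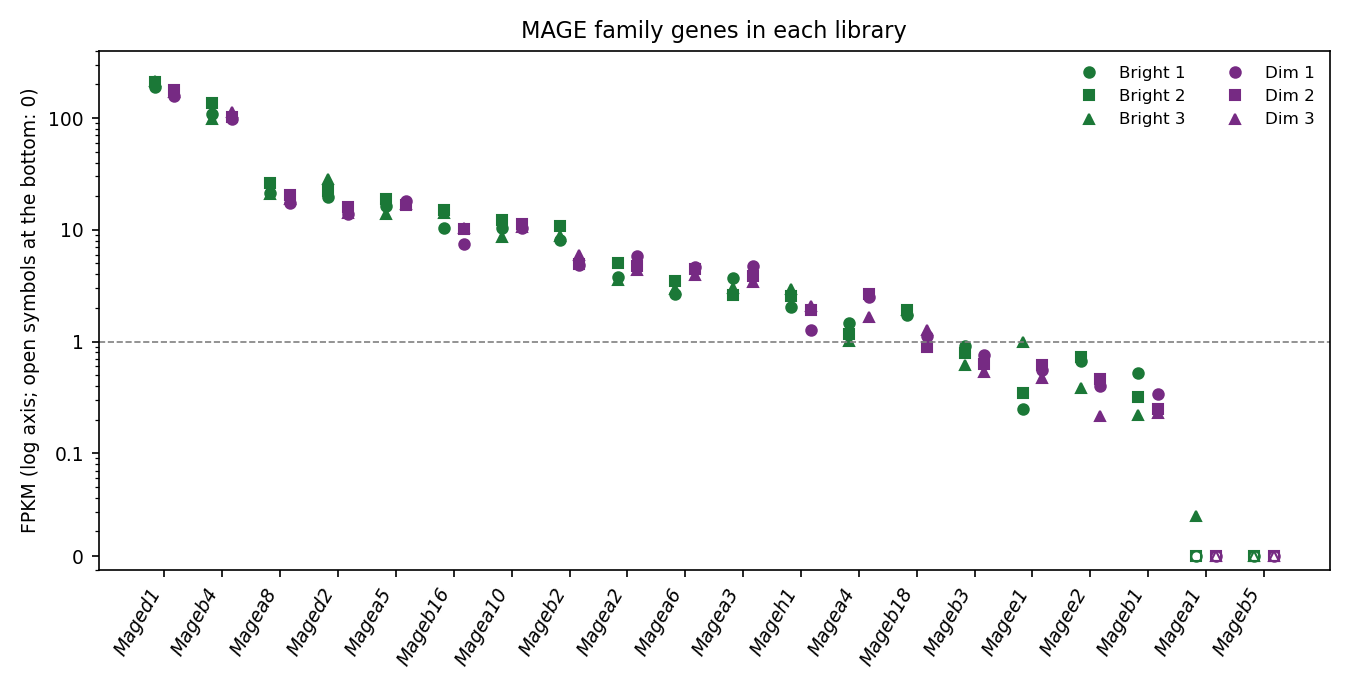
FPKM on a log axis for the 20 MAGE members, ordered by mean, with Bright libraries in green, Dim libraries in purple, circles, squares and triangles for replicates 1, 2 and 3, a dashed line at 1 FPKM and open symbols at the bottom for values listed at 0. Maged1 and Mageb4 stand above all other members in every library, and 6 members stay under 1 FPKM throughout.

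Transcript levels per length spanned from 0 to 215 FPKM within the family. Maged1 and Mageb4 together made up 73.0% to 74.8% of the summed FPKM of the 20 members in each library. Maged1 exceeded Mageb4, and Mageb4 exceeded Magea8, in all 6 libraries with no overlap. From Magea8 down to Mageb1, the ranges of neighbouring members over the 6 libraries overlapped. The summed FPKM of the family was 403.7, 471 and 426 in the Bright libraries and 349.8, 381 and 377 in the Dim libraries. The Bright sums therefore all lay above the Dim sums, at 433 ± 34.3 against 369 ± 17.1 FPKM (SD, n = 3 each), a ratio of 1.17.

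Bright was compared with Dim to ask which genes differ between cells with more and with less ID4. Of the 20 members, 14 had at least 1 FPKM in at least 3 libraries and were tested with all 13416 such genes, by limma on log2(FPKM + 1) with Benjamini-Hochberg adjustment. Before adjustment 4 members favoured Bright and 2 favoured Dim at a limma p under 0.05, beside 2380 and 2370 of all 13416 genes. Mageb2 and Maged2 were higher in Bright and no member was called higher in Dim at an adjusted p under 0.05. The 2 calls are 14.3% of the members tested, below the 22.5% called among all genes, made up of 12% with more RNA in Bright and 10.5% with more in Dim. Groups did not overlap for 8 members, 6 higher in Bright and 2 higher in Dim, or 57.1% of those tested against 41.1% of all genes (20.4% Bright higher, 20.8% Dim higher). The median log2 fold change, Bright minus Dim, was 0.19 over the 14 members, -0.03 over all genes and 0.02 over the 521 X-linked genes tested. Of those X-linked genes 27.4% passed the threshold, 71 toward Bright and 72 toward Dim. Log2 fold changes below are on the log2(FPKM + 1) scale, which understates the change of low genes. The 6 members not tested are described by their levels alone.

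**Figure D2:**
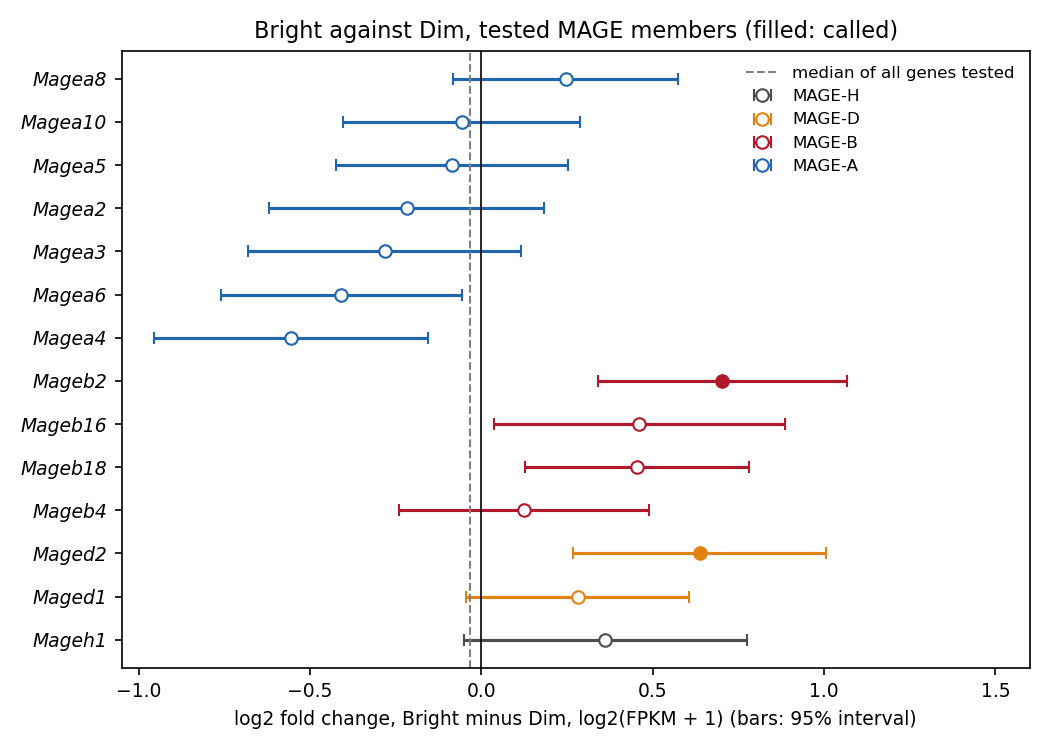
Log2 fold change, Bright minus Dim, with its 95% confidence interval from limma for the 14 members tested, filled where the adjusted p was under 0.05, with the median of all genes as a dashed line. Mageb2 and Maged2 are the filled points, and MAGE-A members make up all of the points below 0.

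Type II members were led by Maged1, also known as NRAGE, which binds the neurotrophin receptor NGFR and coactivates the nuclear receptor RORA. Maged1 reached 190.3, 210.1 and 215 FPKM in Bright and 158, 178 and 170.1 FPKM in Dim. All Bright libraries lay above all Dim libraries, at 205 ± 13.1 against 169 ± 10.5 FPKM (SD, n = 3). The log2 fold change was 0.28 ± 0.14 (SE, 95% interval -0.04 to 0.61) and did not pass the limma test (adjusted p = 0.198).

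Maged2 encodes a protein that binds the stimulatory G protein alpha subunit and is needed for salt transport in the human fetal kidney. The gene spans chrX:150806370-150814345. Its levels were 19.8, 22.1 and 28.6 FPKM in Bright and 13.9, 15.9 and 14.0 FPKM in Dim. The groups did not overlap, and Bright replicate 3 was the highest library. The means were 23.5 ± 4.56 and 14.6 ± 1.12 FPKM (SD, n = 3), a ratio of 1.61, with a log2 fold change of 0.64 ± 0.16 (SE, limma adjusted p = 0.0241). Leaving out a library ended the call in 3 of 6 cases: the limma adjusted p was 0.0525 without Bright replicate 3 (log2 fold change 0.49), 0.0539 without Dim replicate 1 and 0.0883 without Dim replicate 3. With no filter on low values it was 0.0583, in a fit that called 9.1% of genes and left Mageb2 as the only member called.

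Bright replicate 3 stood apart in markers of other testis cells. The summed FPKM of 6 Leydig cell markers was 1747 there and 1.65 to 2.56 in the other 5 libraries, that of 8 Sertoli cell markers was 509 against 8.58 to 25.02, that of 5 peritubular myoid markers 81.2 against 3.37 to 5.66, and that of 6 stromal markers 202 against 24.7 to 36.2. Macrophage markers summed to 104.8 there, to 34.9 and 37.5 in Dim replicates 1 and 2, and to 3.12 to 3.60 in the other Bright libraries. Endothelial markers summed to 20.6 there, to 8.53 and 6.97 in Bright replicates 1 and 2, and to 2.86 to 3.13 in Dim. Stromal markers also summed higher in Bright replicates 1 and 2, at 36.2 and 32.7, than in Dim, at 24.7 to 27.2. Erythroid markers summed to 19.7 in Bright replicate 3 against 0.910 to 11.3. No marker on these lists was at 0 in all 6 libraries. Within Bright, replicate 3 was the highest library for all 6 Leydig, all 8 Sertoli, all 5 myoid, 5 of 6 stromal, all 5 endothelial, all 6 macrophage and all 5 erythroid markers. The 6 germ cell markers, among them Ddx4 and Dazl, summed to 1154 FPKM there and to 1260 to 1429 FPKM elsewhere. The 5 postmeiotic markers summed to 4.802 there, to 6.73 and 6.79 in Bright replicates 1 and 2, and to 1.63 to 3.32 in Dim.

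Of the 5 type II members, 4 were highest in replicate 3 among the Bright libraries. Of the 14 type I members above 0 there was 1, Magea1, at 0.0278 FPKM. The share of all genes that were highest in replicate 3 was not counted, so these counts have no background. Replicate 3 held 3.32 times the mean of the other 2 Bright libraries for Magee1, 1.37 times for Maged2, 1.30 times for Mageh1 and 1.07 times for Maged1. The part of other cell types in the type II levels was not tested. Without that library 2541 genes (18.9%) were called, and Mageb2 was the only member among them.

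Mageh1, whose product also binds NGFR, was low at 2.04, 2.55 and 2.98 FPKM in Bright and 1.26, 1.91 and 2.08 FPKM in Dim. The groups overlapped, with a log2 fold change of 0.36 ± 0.18 (SE, limma adjusted p = 0.193). Magee1, which binds the dystrophin partner dystrobrevin, was at 0.249, 0.349 and 0.993 FPKM in Bright and 0.474 to 0.613 FPKM in Dim. Magee2 was at 0.388 to 0.725 FPKM in Bright and 0.215 to 0.463 FPKM in Dim. Both stayed under 1 FPKM in all 6 libraries and their groups overlapped. Summed over the 5 type II members, Bright held 232 ± 17.7 FPKM and Dim 186 ± 11.8 FPKM (SD, n = 3), a ratio of 1.25, and most of either sum was Maged1.

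All 4 MAGE-B members tested had a log2 fold change above 0, as did 6332 of all 13416 genes tested. The 4 had a median of 0.46, and 1 of them was called. Mageb2 spans chrX:91331690-91333360, and its human counterpart MAGEB2 lowers the stress granule protein G3BP1. It reached 8.04, 10.9 and 8.74 FPKM in Bright and 4.86, 4.96 and 5.94 FPKM in Dim. Every Bright library lay above every Dim library, at 9.21 ± 1.46 against 5.25 ± 0.599 FPKM (SD, n = 3), a ratio of 1.75. The log2 fold change was 0.70 ± 0.16 (SE, 95% interval 0.34 to 1.07, limma adjusted p = 0.0152). It was called in 14 of 15 alternative settings, and without Dim replicate 2 the adjusted p was 0.0505. Without Bright replicate 3 the log2 fold change was 0.73 (limma adjusted p = 0.0330).

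Mageb4 was the most abundant type I member, with 109.6, 136 and 98.0 FPKM in Bright and 97.7, 103 and 112 FPKM in Dim. The groups overlapped, at 115 ± 19.7 against 104 ± 7.45 FPKM (SD, n = 3), and the log2 fold change was 0.13 ± 0.16 (SE, limma adjusted p = 0.615), with a 95% interval of -0.24 to 0.49.

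Mageb16 showed 10.4, 15.2 and 14.3 FPKM in Bright and 7.54, 10.2 and 10.3 FPKM in Dim. The lowest Bright library lay just above the highest Dim library. The log2 fold change was 0.46 ± 0.19 (SE) and was not called (limma adjusted p = 0.114).

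Mageb18, whose human counterpart binds the ubiquitin ligase LNX1, showed 1.72, 1.93 and 1.93 FPKM in Bright and 1.12, 0.900 and 1.26 FPKM in Dim. The groups did not overlap, and the ratio of means was 1.70. Its log2 fold change of 0.45 ± 0.14 (SE) missed the threshold in limma (adjusted p = 0.0533) and passed it in 3 of 14 alternatives, among them median-of-ratios rescaling (adjusted p = 0.0445). The Mageb18 span overlaps that of Gm5941 on the opposite strand, and the strand setting of the counting is not given in the sources used here.

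The other 3 MAGE-B genes stayed under 1 FPKM. Mageb3, the autosomal member at chr2:121953752-121956092, was at 0.611 to 0.912 FPKM in Bright and 0.537 to 0.751 FPKM in Dim. Its span overlaps that of Ctdspl2 on the opposite strand, which averaged 31.3 FPKM in Bright and 41.7 FPKM in Dim. Mageb1 was at 0.222 to 0.522 FPKM in Bright and 0.231 to 0.341 FPKM in Dim. Mageb5 was listed at 0 in all 6 libraries. Summed over the 7 MAGE-B genes, Bright held 140.1 ± 22.2 FPKM and Dim 121 ± 9.22 FPKM (SD, n = 3).

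Among MAGE-A members, 6 of the 7 tested had a log2 fold change below 0, as did 7084 of all 13416 genes tested. The 7 had a median of -0.22, and none was called. Most of the 7 share transcript sequence, as given below, so their signs are not separate observations. At an unadjusted limma p under 0.05 there were 2, Magea4 and Magea6, both higher in Dim, beside 2370 of all 13416 genes in that direction. The summed FPKM of the 8 MAGE-A genes was 61.1 ± 8.04 in Bright and 62.7 ± 2.42 in Dim (SD, n = 3), a ratio of 0.974.

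Magea8 was the most abundant MAGE-A gene and the 1 with a fold change above 0. It showed 21.2, 26.3 and 21.0 FPKM in Bright and 17.5, 20.7 and 18.9 FPKM in Dim. The Bright libraries all lay above the Dim libraries, by a narrow margin. The log2 fold change was 0.25 ± 0.14 (SE, 95% interval -0.08 to 0.57, limma adjusted p = 0.259).

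Magea5 showed 16.3, 19.0 and 13.8 FPKM in Bright and 18.2, 16.7 and 17.0 FPKM in Dim. Magea10 showed 10.3, 12.2 and 8.70 FPKM in Bright and 10.5, 11.2 and 10.7 FPKM in Dim. For both genes the Dim values lay inside the Bright range. Their log2 fold changes were -0.09 (95% interval -0.43 to 0.25) and -0.06 (95% interval -0.40 to 0.29), with limma adjusted p of 0.715 and 0.815.

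Magea4, whose human counterpart binds the DNA damage ligase RAD18, showed 1.47, 1.17 and 1.00 FPKM in Bright and 2.51, 2.64 and 1.67 FPKM in Dim. Every Dim library lay above every Bright library, and the Dim mean was 1.87 times the Bright mean. Its log2 fold change of -0.56 ± 0.18 (SE) missed the threshold in limma (adjusted p = 0.0530) and passed it in 4 of 15 alternatives, among them without Dim replicate 3 (adjusted p = 0.0427).

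Magea6 showed 2.68, 3.49 and 2.95 FPKM in Bright and 4.66, 4.499 and 3.90 FPKM in Dim. The groups did not overlap, and the log2 fold change was -0.41 ± 0.15 (SE, limma adjusted p = 0.0932). Human MAGEA3 and MAGEA6 act with the ligase TRIM28 on the energy sensor AMPK. Magea3 showed 3.74, 2.62 and 3.02 FPKM in Bright and 4.76, 3.89 and 3.42 FPKM in Dim, with overlapping groups (log2 fold change -0.28, limma adjusted p = 0.285).

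Magea2 showed 3.76, 5.09 and 3.55 FPKM in Bright and 5.78, 4.73 and 4.33 FPKM in Dim. These groups overlapped as well (log2 fold change -0.22, limma adjusted p = 0.416). Magea1 was listed at 0 in 5 libraries and at 0.0278 FPKM in Bright replicate 3, where 1 read on its transcript of 1108 bases would be worth about 0.0256 FPKM.

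Much of the sequence behind these values is shared, which limits how surely fragments can be given to 1 gene. Sharing was measured as the percentage of 50-base stretches of a gene's GENCODE M21 transcripts that also occur in another gene's transcripts. It was 75.9% for Magea1, 58.3% for Magea2, 54.0% for Magea3, 46.2% for Magea5, 41.5% for Magea8 and 39.0% for Magea6, but 2.34% for Magea4 and 0% for Magea10. The first 6 lie together at chrX:154924012-155093666, a stretch of 170 kb, where the span of Magea2 covers Magea5 and Magea1 on the same strand. How the authors' counting split fragments among them is not given in the sources used here, so the single values of these genes are uncertain. Their sum was 47.7, 56.5 and 44.3 FPKM in Bright and 50.9, 50.5 and 47.6 FPKM in Dim, and the groups overlapped (ratio of means 0.997).

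**Figure D3:**
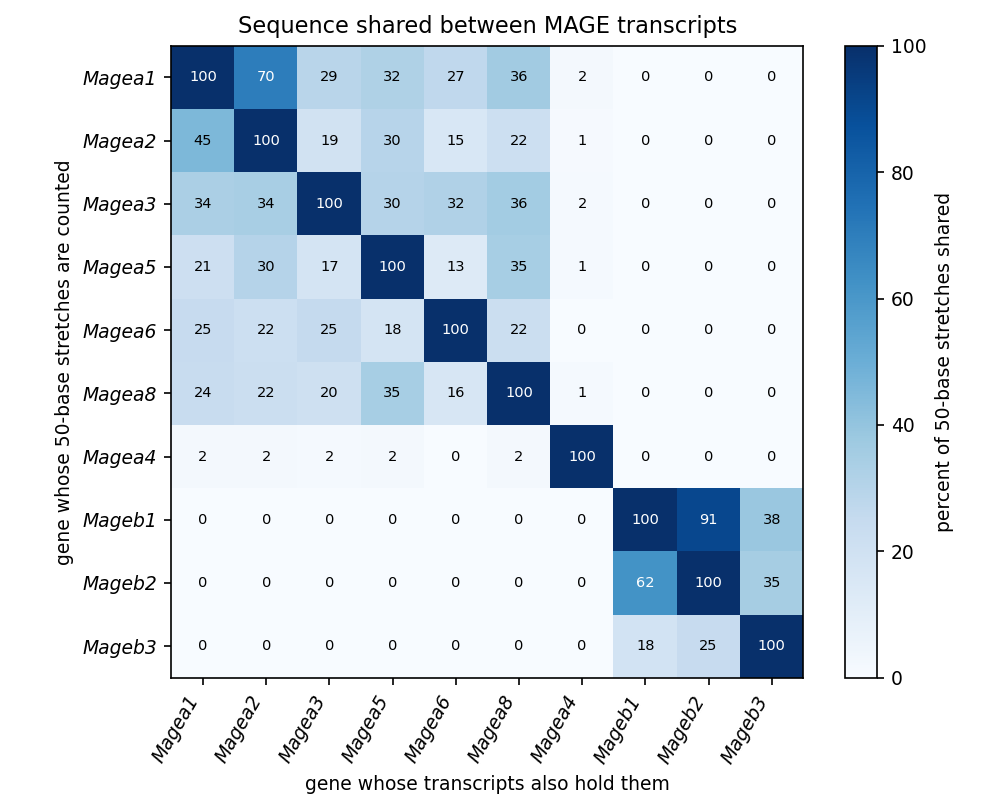
Heat map of the percentage of 50-base stretches in the transcripts of the row gene that also occur in those of the column gene, for the 10 members that share any with another member. Mageb1 and Mageb2 share the most, and the MAGE-A cluster genes share stretches among themselves.

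Among MAGE-B genes, 93.3% of the stretches of Mageb1 and 72.4% of those of Mageb2 occur elsewhere, mostly in each other. Added together, Mageb1 and Mageb2 reached 8.56, 11.2 and 8.97 FPKM in Bright and 5.20, 5.21 and 6.17 FPKM in Dim. The sum did not overlap between groups, with a ratio of 1.73. Mageb1 averaged only 0.355 FPKM in Bright and 0.274 FPKM in Dim, so this ratio could hardly differ from the 1.75 of Mageb2 alone. Mageb3, which holds 35.0% of the stretches of Mageb2, was not in the sum. Mageb16 shared 55.1% of its stretches, mostly with the pseudogene Mageb16-ps2, Mageb4 shared 50.1%, mostly with Mageb10-ps, and Mageb5 shared 81.8%, mostly with Gm14781. No levels were listed under the symbols Mageb16-ps2 or Mageb10-ps, so their part in the values of Mageb16 and Mageb4 is not known. Gm14781 was listed at 0.0219 FPKM in Bright replicate 3, at 0.0292 FPKM in Dim replicate 1 and at 0 in the other libraries. Mageb3 shared 27.6%, mostly with Mageb2. Maged2 shared 1.49%, with Tro, whereas Maged1, Mageh1, Magee1 and Mageb18 shared 0%.

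The authors' deposited table called none of the 20 members at a q-value under 0.05, a level passed by 7.71% of its rows. At an unadjusted p under 0.05 the authors' deposited table held 2 members, Maged2 (log2 ratio 0.64, p = 0.0122, q = 0.0738) and Mageb2 (log2 ratio 0.86, p = 0.0222, q = 0.114), the same pair that limma called. The share of all its rows at that unadjusted level was not counted.

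The sort was visible in Id4 itself, at 28.5, 42.7 and 39.7 FPKM in Bright and 3.75, 4.71 and 5.39 FPKM in Dim (log2 fold change 2.75, limma adjusted p = 9.69e-05). The GDNF receptor gene Gfra1 was higher in Bright and the differentiation genes Kit and Stra8 were higher in Dim, with log2 fold changes of 3.87, -2.11 and -1.11 and limma adjusted p of 4.66e-05, 0.000394 and 0.00195.

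Genes outside the rule that carry the same domain gave no call. Of 4 relatives 3 were tested, none passed in limma even before adjustment (0 at p under 0.05), and their log2 fold changes had a median of 0.06. Tro, which encodes the adhesion protein trophinin, was at 15.3 ± 4.08 FPKM in Bright and 14.6 ± 3.73 FPKM in Dim (SD, n = 3). Ndn, a growth suppressor, was at 7.32 ± 1.82 and 5.63 ± 1.02 FPKM. Magel2 stayed at 0.0641 to 0.123 FPKM in Bright and 0.176 to 0.249 FPKM in Dim, under the level needed for testing.

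Partners and targets of MAGE proteins in the table numbered 27, of which 24 were tested. The log2 fold change was above 0 for 16 and below 0 for 8. The 24 log2 fold changes had a median of 0.11. Before adjustment, 6 favoured Bright and 1 favoured Dim at a limma p under 0.05, beside 2380 and 2370 of all 13416 genes. Of the 24 genes, 4 were called for Bright, beside 12% of all genes, and 0 for Dim, beside 10.5%. Among the 4, Msx2 passed the filter through its Bright libraries alone, so it could enter the test only as higher in Bright. With at least 1 FPKM required in all 6 libraries, 3 partners were called for Bright and 0 for Dim. That fit called 2495 of 11889 genes, 51.9% of the calls being toward Bright. Gnas, which encodes the stimulatory G protein alpha subunit that MAGED2 binds, rose from 17.9, 18.8 and 23.3 FPKM in Dim to 40.6, 47.8 and 89.0 FPKM in Bright (log2 fold change 1.45, limma adjusted p = 0.00793). Bright replicate 3, the library with high markers of other cell types, was again the highest; without it the log2 fold change was 1.11. Rora, the nuclear receptor that MAGED1 coactivates, was at 6.39 ± 0.558 FPKM in Bright and 2.13 ± 0.0860 FPKM in Dim (log2 fold change 1.24, limma adjusted p = 0.000830).

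G3bp1, whose human product is lowered by MAGEB2, was at 35.7 ± 2.37 FPKM in Bright and 22.2 ± 3.50 FPKM in Dim (log2 fold change 0.67, limma adjusted p = 0.0131), so its RNA and that of Mageb2 were both higher in Bright. Msx2, a homeobox factor, was at 1.11 ± 0.0624 and 0.546 ± 0.1001 FPKM (limma adjusted p = 0.0445), and reached 1 FPKM in Bright libraries alone. Its call was lost on leaving out any library (adjusted p 0.0666 to 0.151). The most abundant partners not called were Trim28 (254.1 ± 69.9 and 306 ± 51.3 FPKM) and the deubiquitinase gene Usp7 (104.8 ± 17.5 and 136 ± 30.4 FPKM), with limma adjusted p of 0.413 and 0.222.

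Of 18 regulators of cancer-testis genes, all were tested. Fold changes on the log2 scale were above 0 for 8 and below 0 for 10. The 18 log2 fold changes had a median of -0.25. Before adjustment, 1 favoured Bright and 7 favoured Dim at a limma p under 0.05, beside 2380 and 2370 of all 13416 genes. The limma calls were 1 for Bright, beside 12% of all genes, and 3 for Dim, beside 10.5%. Pcgf6, a subunit of the Polycomb complex PRC1.6 that represses germ-cell genes in other cells, was at 40.0 ± 3.27 FPKM in Bright and 18.3 ± 4.18 FPKM in Dim (log2 fold change 1.11, limma adjusted p = 0.00278). L3mbtl2, another subunit of that complex, moved the other way, at 26.5 ± 4.65 and 39.9 ± 2.11 FPKM (log2 fold change -0.59, limma adjusted p = 0.0273). Dnmt3b, a de novo DNA methyltransferase, was at 32.3 ± 5.67 and 63.1 ± 6.71 FPKM (log2 fold change -0.95, limma adjusted p = 0.00404). Ctcf, an insulator protein, was at 33.0 ± 1.88 and 46.4 ± 5.49 FPKM (log2 fold change -0.47, limma adjusted p = 0.0357). The Ctcf call was lost on leaving out any library (adjusted p 0.0629 to 0.120), and that of L3mbtl2 without Bright replicate 3 or any Dim library (adjusted p 0.0529 to 0.0772). Ehmt2 and Hdac2, the most abundant not called, had limma adjusted p of 0.166 and 0.106.

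**Figure D4:**
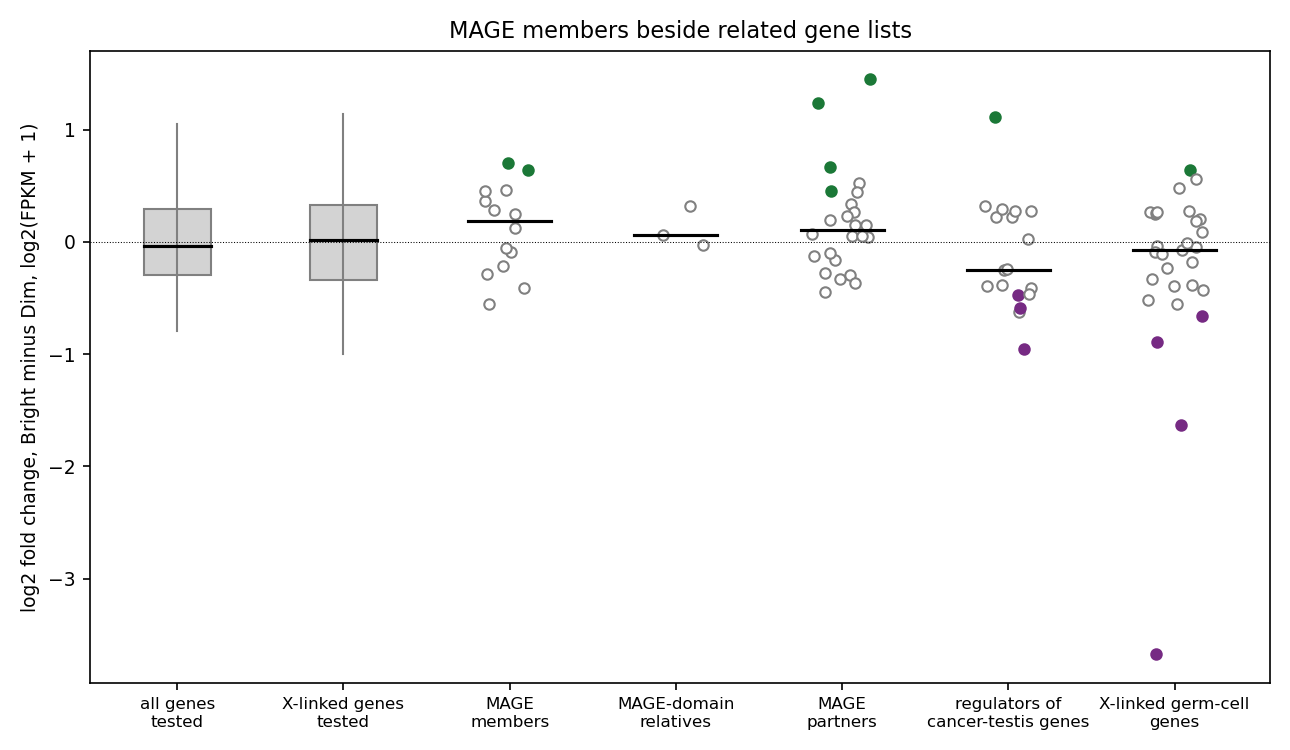
Log2 fold change, Bright minus Dim, with boxes for all genes tested and all X-linked genes tested (box from the 25th to the 75th percentile, line at the median, whiskers at the 5th and 95th percentile) and points for the MAGE members and 4 lists, green for called higher in Bright, purple for called higher in Dim, open for not called, with a bar at each median. The MAGE members lie between -0.56 and 0.70, inside the whiskers of all genes at -0.79 and 1.05.

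Other X-linked genes, most of them germ-cell genes, gave a set of like position, called X-linked germ-cell genes here. The list numbered 38, of which 29 were tested, and its members Zfx, Zfp711 and Rbmx2 are not restricted to germ cells. Here log2 fold changes were above 0 for 11 and below 0 for 18. The 29 log2 fold changes had a median of -0.07. Before adjustment, 1 favoured Bright and 5 favoured Dim at a limma p under 0.05, beside 99 and 105 of all 521 X-linked genes tested. Calls by limma were 1 for Bright, beside 13.6% of X-linked genes, and 4 for Dim, beside 13.8%. Esx1, a homeobox gene, was at 3.28 ± 1.88 FPKM in Bright and 51.5 ± 17.3 FPKM in Dim (log2 fold change -3.67, limma adjusted p = 0.00144). Rhox13, also a homeobox gene, was at 19.1 ± 5.15 and 61.7 ± 18.4 FPKM (log2 fold change -1.63, limma adjusted p = 0.00238). The other 2 were Zfp711 (log2 fold change -0.89, limma adjusted p = 0.0217) and Rbmx2 (log2 fold change -0.66, limma adjusted p = 0.0118). The Zfp711 call was lost without Bright replicate 2 or 3 or Dim replicate 3 (adjusted p 0.0536 to 0.0747), and that of Rbmx2 without Dim replicate 3 (0.0531). Fthl17d, a ferritin-like gene with near-identical copies and so an uncertain count, was at 7.42 ± 1.25 and 4.40 ± 0.636 FPKM (log2 fold change 0.64, limma adjusted p = 0.0287), and leaving out any library but Bright replicate 1 ended its call (adjusted p 0.0527 to 0.0838). Taf7l, the most abundant not called, was at 289 ± 39.6 and 388 ± 11.7 FPKM (limma adjusted p = 0.105).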

How the data were processed

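Per the submitters' processing notes, TopHat2 2.1.1, Cufflinks 2.2.1 and the build mm9 were named. The authors deposited FPKM values per gene and library, and a table of their own comparison with log2 ratios, p-values and q-values. The coordinates in the deposited tables equal GRCm38 (GENCODE M21) for all 20 members and for 80.9% of the 31584 IDs matched, so coordinates are given as GRCm38. FPKM are not counts: depth was estimated from the size of 1-read steps at about 21700000 to 35200000 reads per library, 1 read per kilobase being worth 0.0284 to 0.0460 FPKM, and no counting interval is given. FPKM divide by length and total, so a few very abundant genes can shift all others.

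Testing required 1 FPKM or more in 3 or more of the 6 libraries and was done by limma 3.58.1 in R 4.3.3 on log2(FPKM + 1), group only, with trend and robust estimation, two-sided, adjusted by Benjamini-Hochberg over all genes, threshold 0.05; the fit was tested on simulated data. Members reaching 1 FPKM in any library are given per library. From each list, up to 4 called genes with the largest change and up to 2 abundant genes not called are named; Fthl17d, outside this rule, was named after its values were seen, as the 1 X-linked germ-cell gene called higher in Bright. Members and lists were chosen with earlier results of these data known. There were 15 alternatives: 2 pseudocounts (0.1 and 0.5), 2 filters, 3 rescalings (median of ratios, TPM, quantile), no trend or robust estimation, a replicate block and leaving out each library. Window identities came from Biopython 1.88. Protein sequences were not used here.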

Additional observations from a re-analysis of the deposited data

How the results depend on the processing

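The 15 alternatives gave 3016 called genes in the fit as reported and 1957 to 2603 on leaving out a library. Members called higher in Bright numbered 2, with 1 under no filter on low values, 3 (Mageb18 added) under median-of-ratios rescaling and under no trend and no robust estimation, and 1 to 2 on leaving out a library. Members called higher in Dim numbered 0, with 1 (Magea4) under a filter of 1 FPKM in all 6 libraries, 1 (Magea4) under quantile normalization and 0 to 1 on leaving out a library. Regulators called higher in Dim numbered 3, with 1 under no filter, 1 under TPM rescaling and 1 to 3 on leaving out a library. X-linked germ-cell genes called higher in Bright numbered 1, with 0 under quantile normalization and 0 to 1 on leaving out a library, and those higher in Dim numbered 4, with 2 to 4 on leaving out a library. On leaving out a library the log2 fold change of Magea10 ranged from -0.17 to 0.054 and that of Magea5 from -0.19 to 0.024, both above 0 without Bright replicate 3. That of Mageb4 ranged from -0.0052 to 0.23, below 0 without Bright replicate 2, and that of Tro from -0.12 to 0.24, below 0 without Bright replicate 1 and, at -0.095, without Dim replicate 2. The cause was not tested. No other sign changed among the 14 members tested. Rescaling moved the median over all genes to between -0.06 and 0.02.

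Replicate numbers are shared between groups, but no label says that they pair libraries, so the replicate block was kept as an alternative. Deviations of same-numbered libraries correlated at 0.44 and 0.51 for replicates 1 and 2 and at -0.19 for replicate 3. Those of differently numbered libraries correlated at -0.60 to 0.18. Of the 6 libraries, 4 correlated best with their own number, so the correlations do not settle whether the numbers are pairs. With a replicate block 5453 of 13416 genes (40.6%) were called, 2607 toward Bright and 2846 toward Dim. Of the 521 X-linked genes tested, 107 calls went toward Bright and 121 toward Dim. Among the 14 members tested, 4 calls went toward Bright (Mageb2, Maged2, Mageb16 and Mageb18) and 2 toward Dim (Magea4 and Magea6). The 24 partners tested gave 6 calls toward Bright and 3 toward Dim. For the 18 regulators there were 3 toward Bright and 7 toward Dim. The 29 X-linked germ-cell genes tested gave 2 toward Bright and 10 toward Dim.

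The 6 members under 1 FPKM were left out of the test by the filter, so no difference is reported for them. Shared sequence limits the single values of MAGE-A cluster genes and of Mageb1, Mageb2, Mageb3, Mageb4, Mageb5 and Mageb16.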
